A study of Homo sapiens with 11 samples.

Results

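The regulators described here are 10 genes that steer epithelial and mesenchymal programmes: the zinc-finger factors ZEB1, ZEB2, SNAI1 and SNAI2, the basic helix-loop-helix factors TWIST1 and TWIST2, the epithelial splicing factors ESRP1 and ESRP2, and the epithelial transcription factors GRHL2 and ELF3. They were chosen by name, and every array probe whose RefSeq transcript belongs to one of them was taken, which gave 17 probes of the 42405 on the array and 10 of the 20249 genes named on it. The RNA came from A549 and HCC827, established human lung adenocarcinoma cell lines that had been infected with the retroviral vector pMXs-Neo and selected with G418. The vector was either empty (mock) or carried FLAG-tagged wild-type TRIM58 (TRIM58-WT), so all 4 groups share the vector and the selection. There were 3 replicates of A549 mock, read on 4 arrays, and 3 of A549 TRIM58-WT. HCC827 had 2 replicates in either group. Mock arrays 1-1 and 1-2 of A549 carry the same control cell in their labels and were averaged to replicate 1. The study numbers its A549 transfectants as clones and elsewhere calls those of HCC827 crude, so a difference within A549 may belong to a clone as well as to the vector, and the arrays cannot tell these apart.

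ZEB, SNAI and TWIST proteins are known as drivers of the epithelial-mesenchymal transition. ZEB and SNAI bind E-boxes in promoters of epithelial genes such as E-cadherin and repress them, TWIST proteins act on both epithelial and mesenchymal genes, and the microRNAs of the miR-200 family hold ZEB1 and ZEB2 down in epithelial cells. GRHL2 keeps epithelial junction genes active and counteracts ZEB1, ELF3 is an ETS factor of differentiated epithelium, and ESRP1 and ESRP2 keep messages such as FGFR2 and CD44 in their epithelial splice forms.

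The arrays measured a fluorescence intensity in 1 colour. All levels below are log2 signals relative to the 75th percentile of the same array, so that 0 is the level of the 75th percentile and a difference of 1 is 2-fold. The scanner software tests each spot against its surroundings, and by that test an array had from 40.1% to 49.99% of its probes well above background. No spot was saturated. TRIM58 itself was at background on all 5 arrays that carry the TRIM58-WT label. Its level was between -4.84 and -4.63 in A549 TRIM58-WT and -5.64 and -5.38 in HCC827 TRIM58-WT. It was well above background on a single array, A549 mock replicate 3, at -0.71, against -5.33 to -5.18 on the other A549 mock arrays. The position of this probe relative to the inserted coding sequence was not analysed here, and every direction given is TRIM58-WT relative to mock as the labels name them. Mock replicate 3 stands apart over all tested probes too. The SD of its difference from A549 TRIM58-WT replicates 2 and 3, which share slide 2 with it, was 0.774 and 0.763. That from the other A549 mock arrays was 0.797 to 0.905, with 0.797 for array 1-2, also on slide 2. Mock replicate 3 and TRIM58-WT replicates 2 and 3 were also the dimmest arrays. Their 75th percentile signals were 60.3, 62.5 and 56.6, against 90.5 to 125 on the others. The part of this dimness in their likeness was not tested. Results for A549 are therefore also given without mock replicate 3. That array was singled out partly for its likeness to TRIM58-WT, so leaving it out tends to widen the differences by this choice. Such values are no independent result. A549 TRIM58-WT replicates 2 and 3 differed less from each other (SD 0.344) than mock arrays 1-1 and 1-2, which hold the same cell (0.352). They carry different labels and were kept separate, and whether they share a sample was not tested.

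Of 11 lung adenocarcinoma markers, 6 were above background throughout A549 mock, 4 throughout A549 TRIM58-WT and 8 throughout either HCC827 group. NKX2-1, the lineage factor of lung epithelium, was not well above background on any A549 array. Of 7 fibroblast markers 0 reached a signal well above background throughout a group, and PDGFRA, PDGFRB, COL1A2, COL3A1, DCN and THY1 were not well above background on any of the 11 arrays. LUM, the other one, was well above background on 3 of the 4 A549 mock arrays and on none of the other 7 arrays.

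Before TRIM58-WT is considered, the mock cells of the lines differed most in the epithelial splicing factors and GRHL2. ESRP1, ESRP2 and GRHL2 were well above background on every HCC827 array and on no A549 array, whereas ZEB1 was lower in HCC827. Of the 17 regulator probes, 11 could be tested, because all arrays of one of the groups or of both gave a signal well above background. The test was limma, in which each probe's variance is moderated by that of the other probes. A probe was called at a Benjamini-Hochberg adjusted p under 0.05 over all tested probes and a log2 change of 1 or more in size. This held for 5 of the 11, beside 30.3% of the 19505 probes tested in this comparison. HCC827 mock did not overlap A549 mock on 10 of the 11, beside 69.7% of all tested probes.

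ESRP2, the second of the paired epithelial splicing regulators, was at 4.32 and 4.20 in HCC827 mock replicates 1 and 2. In A549 it was at -3.67 and -3.78 on mock arrays 1-1 and 1-2, -3.71 in mock replicate 2 and -3.10 in mock replicate 3, none of them well above background. Every HCC827 value thus lay above every A549 value. Because A549 gave no signal above background, the difference is a lower bound, set against the lowest signal well above background on each A549 array or against the signal of ESRP2 itself if higher. ESRP2 was at least 142-fold higher in HCC827 mock than in A549 mock (adjusted p = 6.38e-05, limma).

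ESRP1, which acts on many of the same exons, showed the same split on its single spot. It was at 1.67 and 1.75 in HCC827 mock and not well above background at -5.18, -3.92, -4.93 and -3.79 on A549 mock arrays 1-1, 1-2, 2 and 3. HCC827 mock was at least 24.2-fold higher (adjusted p = 0.000268, limma). The use of ESRP target exons was not analysed here.

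GRHL2, the grainyhead factor that sustains epithelial junctions, has 2 probes. The brighter, A_24_P35228, was at 0.13 and 0.15 in HCC827 mock and between -5.48 and -4.78 on the A549 mock arrays, all 4 at background. HCC827 mock was at least 8.17-fold higher on it (adjusted p = 0.000149, limma). The dimmer, A_33_P3321642, was well above background in HCC827 mock replicate 1 at -2.87 and in HCC827 TRIM58-WT replicate 1 at -2.74 and on none of the other 9 arrays, so it was not tested. ESRP1 and GRHL2, like SNAI2, lie on chromosome 8, where the median change of the 429 genes tested was -0.30 in HCC827 mock against A549 mock, opposite in sign to these differences.

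ELF3 was detected in both lines. It was at 4.44 and 4.40 in HCC827 mock and at 4.03, 3.92, 3.95 and 3.41 on A549 mock arrays 1-1, 1-2, 2 and 3. The groups did not overlap, but the change of 0.65 (log2, SE 0.23) did not pass the threshold (adjusted p = 0.0754, limma), with a 95% confidence interval of 0.06 to 1.23.

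Among the mesenchymal factors, ZEB1 and 1 probe of TWIST2 were called between the lines. For ZEB1 the brighter probe, A_33_P3374723, was at -1.62 and -1.28 in HCC827 mock and at -0.15, -0.32, -0.22 and 1.15 on A549 mock arrays 1-1, 1-2, 2 and 3. It was 3.2-fold lower in HCC827 mock (log2 change -1.68, SE 0.48, adjusted p = 0.0404, limma). Mock replicate 3 was the highest A549 array, and without it the change was -1.22 with an adjusted p of 0.00396. All HCC827 arrays lie on slide 1, so a fit with the slide as a block gives, by construction, the change between the mock arrays of slide 1. On that fit the call did not hold (-1.26, adjusted p = 0.0899). It also did not hold without HCC827 mock replicate 1 (adjusted p = 0.198) or 2 (0.134), or without A549 mock replicate 1 (0.0596). The second ZEB1 probe, A_33_P3640690, was well above background on 3 of the 4 A549 mock arrays and on no HCC827 array, and was not tested. Its A549 mock mean was 2.82-fold above the lowest signals well above background on the HCC827 mock arrays. That mean takes in mock replicate 2, which was not well above background, so the fold is no lower bound.

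SNAI1, the factor also called Snail, was at -0.10 and -0.13 in HCC827 mock and between 0.23 and 0.77 on the 4 A549 mock arrays, a change of -0.62 that did not pass the threshold (adjusted p = 0.0593, limma). TWIST1 was at -2.16 and -2.35 in HCC827 mock on its brighter probe, within the A549 mock range of -3.42 to -1.72. ZEB2 and SNAI2, the factor also called Slug, were at background on all mock arrays of both lines.

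TWIST2 has 4 probes that fall into 2 pairs by the RefSeq transcript they name. The pair A_23_P21324 and A_19_P00809039 was the brighter. On A_23_P21324 TWIST2 was at 1.47 and 1.38 in HCC827 mock and between 0.76 and 1.13 on the A549 mock arrays, and on A_19_P00809039 at 1.46 and 1.26 against 0.63 to 0.93. Neither passed the threshold. Of the other pair, A_19_P00322911 was at -1.12 and -1.20 in HCC827 mock and between -2.85 and -2.22 on the A549 mock arrays, 2.59-fold higher in HCC827 (adjusted p = 0.00603, limma), and A_19_P00322910 was 1.7-fold higher without passing (adjusted p = 0.0662). All 4 probes lay higher in HCC827 mock, with log2 changes between 0.42 and 1.37.

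**Figure D1:**
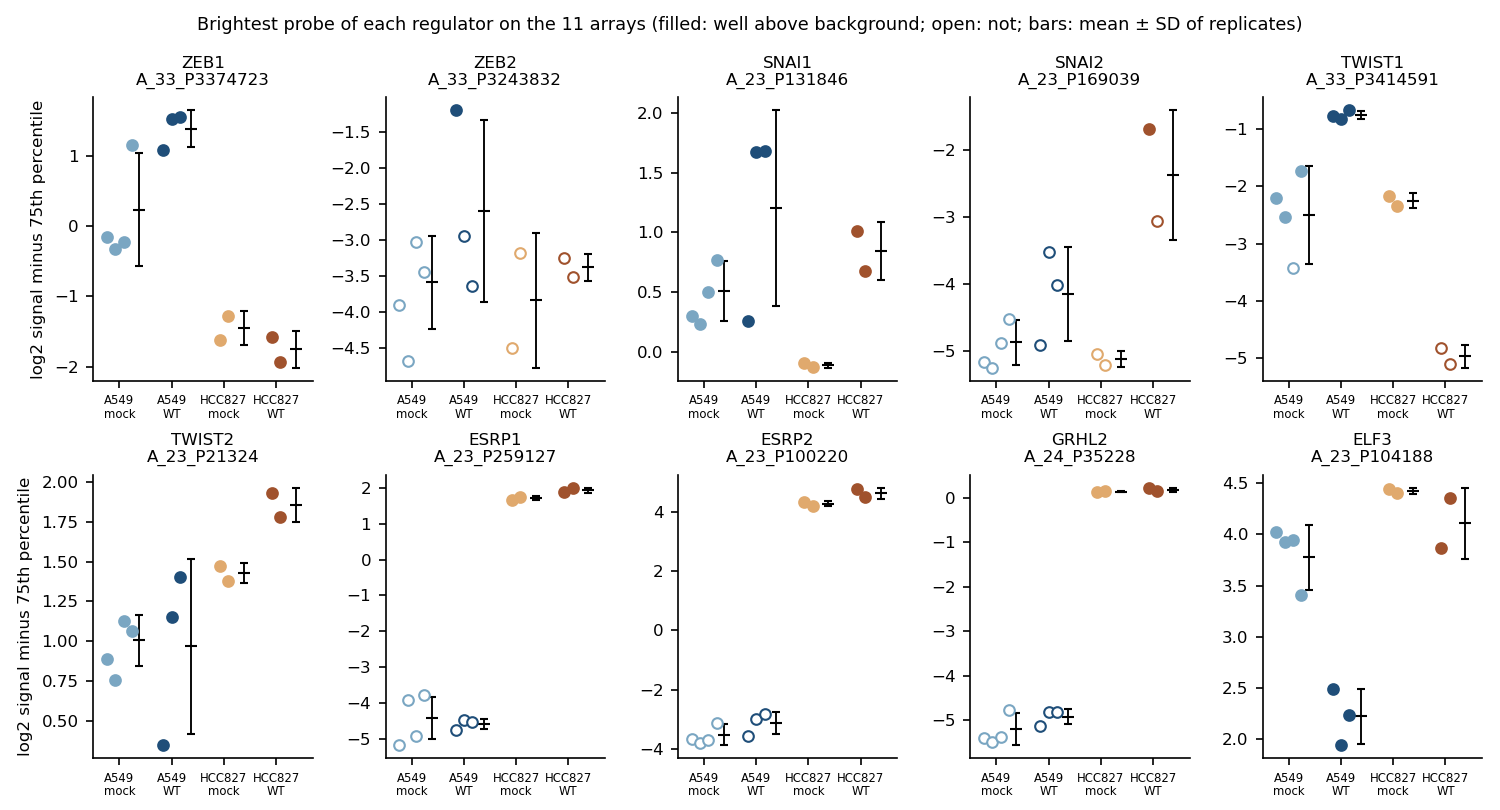
Log2 signal minus the array's 75th percentile (vertical axis, scaled separately in each panel) of the brightest probe of each of the 10 regulators, with 1 point per array in the 4 groups. WT is TRIM58-WT. Filled points were well above background and open points were not, and bars give the mean ± SD over replicates (3, 3, 2 and 2). ESRP1, ESRP2 and GRHL2 are filled on the HCC827 arrays alone, ELF3 is lowest in A549 TRIM58-WT, and TWIST1 is highest in A549 TRIM58-WT and at background in HCC827 TRIM58-WT.

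In A549, TRIM58-WT was set against mock to see which transcripts differ once the construct is introduced. ELF3 fell, and TWIST1 and ZEB1 were higher on average without passing the test when all replicates were kept. ESRP1, ESRP2 and GRHL2 stayed at background in both groups. Of the 17 regulator probes 9 were tested, and 1 was called, beside 6.92% of the 16923 probes tested. The groups did not overlap on 3 of the 9, beside 31% of all tested probes.

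ELF3 was at 4.03, 3.92, 3.95 and 3.41 on mock arrays 1-1, 1-2, 2 and 3 and at 2.49, 1.94 and 2.23 in TRIM58-WT replicates 1, 2 and 3. Every TRIM58-WT replicate lay below every mock array. ELF3 was 2.95-fold lower in TRIM58-WT (log2 change -1.56, SE 0.24, adjusted p = 0.0143, limma), with a 95% confidence interval of -2.13 to -0.99. The change was -1.50 within slide 1 and -1.58 within slide 2, and without mock replicate 3 it was -1.74 (adjusted p = 0.00804). The call did not hold without mock replicate 1 (adjusted p = 0.0818) or 2 (0.0695) or without TRIM58-WT replicate 2 (0.0679) or 3 (0.0737), while the change kept between -1.74 and -1.42.

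The promoters of ELF3 and ZEB1 are shown for the E-box CAGGTG, the motif that ZEB and SNAI factors are known to bind. The sequences come from RefSeq (GRCh38.p14). They cover the 250 bases before an annotated start, 5′ to 3′ on the strand of the gene, with every match to the E-box in capitals, where the motif on the opposite strand reads CACCTG and a match on one strand cannot overlap one on the other. Among all 35116 windows of this length, 17.5% held the motif. Of the 10 regulators 4 had windows, and 3 of their 10 windows held it. ELF3 (chr1:202010337-202010586, plus strand) has 1 match, which begins 120 bases before the start. Of 7 annotated windows of ZEB1, 2 held the motif, and the one shown (chr10:31318966-31319215, plus strand) has 2, beginning 242 and 85 bases before its start. The windows of ZEB2 and TWIST2 held none. A match is a description of the sequence and was not tested as a binding site.
ELF3: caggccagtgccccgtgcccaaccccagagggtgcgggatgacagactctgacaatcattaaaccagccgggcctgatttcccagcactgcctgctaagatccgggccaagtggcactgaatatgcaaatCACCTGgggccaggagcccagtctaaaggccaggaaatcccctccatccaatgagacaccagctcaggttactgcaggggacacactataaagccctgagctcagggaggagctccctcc
ZEB1: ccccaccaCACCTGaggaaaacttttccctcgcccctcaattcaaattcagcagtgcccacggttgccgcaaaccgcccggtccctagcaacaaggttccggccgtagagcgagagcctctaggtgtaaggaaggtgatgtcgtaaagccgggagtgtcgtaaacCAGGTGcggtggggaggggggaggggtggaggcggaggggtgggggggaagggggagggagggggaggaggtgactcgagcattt

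TWIST1 on probe A_33_P3414591 was at -2.20 and -2.53 on mock arrays 1-1 and 1-2, -3.42 and not well above background in mock replicate 2, and -1.72 in mock replicate 3. In TRIM58-WT it was at -0.76, -0.82 and -0.67. The TRIM58-WT replicates lay close together and above every mock array, while the mock arrays were spread widely. The change was 1.75 (log2, SE 0.42, 3.37-fold) and just missed the threshold (adjusted p = 0.0512, limma). Without mock replicate 3, the array nearest to TRIM58-WT, it was 2.14 (adjusted p = 0.0162, limma). Without mock replicate 1 it was 1.82 (adjusted p = 0.168) and without mock replicate 2 it was 1.29 (0.0758). Within the slides it was 2.05 and 1.38. After normexp background correction it was 0.55 (adjusted p = 0.0946). The second probe of TWIST1, A_23_P71073, was not well above background on any of the 11 arrays, between -5.28 and -3.43, so the values for TWIST1 rest on 1 probe with 1 spot.

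ZEB1 was at -0.15, -0.32, -0.22 and 1.15 on mock arrays 1-1, 1-2, 2 and 3 and at 1.08, 1.52 and 1.55 in TRIM58-WT on probe A_33_P3374723. Mock replicate 3 lay above TRIM58-WT replicate 1, so the groups overlapped through this array alone. The change of 1.15 (log2, SE 0.41) did not pass (adjusted p = 0.140, limma). Without mock replicate 3, the array nearest to TRIM58-WT, it was 1.61 (adjusted p = 0.00947, limma). Without mock replicate 1 or 2 it was 0.92 each time (adjusted p = 0.406 and 0.381). It was 1.27 within slide 1 and 1.12 within slide 2. The second probe, A_33_P3640690, also placed mock replicate 3 above the other mock arrays, with -0.56 in mock replicate 3 against -2.45 to -2.28 on the other mock arrays and -1.08, 0.03 and -0.28 in TRIM58-WT. Mock replicate 3 is also the array on which the TRIM58 probe was well above background, and the part of this in either result was not tested.

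SNAI1 was uneven among the TRIM58-WT replicates. It was at 0.26 in replicate 1, below mock replicate 2 at 0.50 and mock replicate 3 at 0.77, and at 1.67 and 1.68 in replicates 2 and 3. The change of 0.69 did not pass (adjusted p = 0.363, limma), and it was 1.17 without TRIM58-WT replicate 1 (adjusted p = 0.0254). Replicate 1 lies on slide 1 and replicates 2 and 3 on slide 2. The change was -0.14 within slide 1 and 1.18 within slide 2.

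The TWIST2 probes parted by transcript pair in A549. The brighter pair gave changes near 0, with -0.04 (95% confidence interval -0.75 to 0.68) on A_23_P21324 and -0.04 (-0.67 to 0.58) on A_19_P00809039. The dimmer pair was well above background on all 4 mock arrays and on no TRIM58-WT array. A_19_P00322910 went from -2.59, -2.56, -2.10 and -1.81 on the mock arrays to -3.07, -3.30 and -2.93 in TRIM58-WT, at least 1.39-fold lower (adjusted p = 0.0624, limma), and A_19_P00322911 was at least 1.04-fold lower (adjusted p = 0.163). Neither passed the threshold, and the difference between the pairs was not tested.

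**Figure D2:**
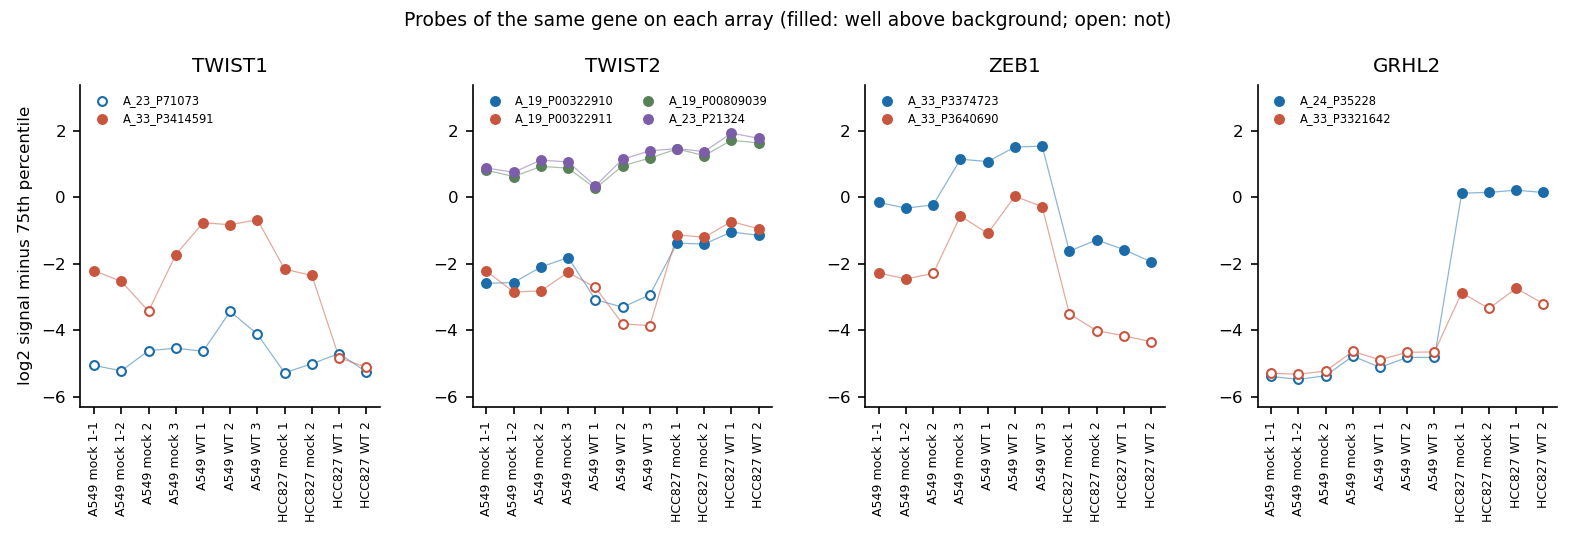
Log2 signal minus the array's 75th percentile of every probe of TWIST1, TWIST2, ZEB1 and GRHL2 on the 11 arrays, with filled points well above background and open points not. Lines join the values of 1 probe, and levels of different probes are not comparable. A_23_P71073 of TWIST1 is open on all 11 arrays, A_33_P3414591 falls to open points in HCC827 TRIM58-WT, the TWIST2 probes form 2 pairs, and both ZEB1 probes place A549 mock 3 beside the A549 TRIM58-WT arrays.

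The regulators at background in A549 stayed there. ESRP1 was between -4.76 and -4.48 in TRIM58-WT, ESRP2 between -3.54 and -2.83 and GRHL2 between -5.12 and -4.81 on its brighter probe, none of them well above background. SNAI2 was between -4.90 and -3.52 and equally dim. ZEB2 was well above background on a single array, TRIM58-WT replicate 1 at -1.20 on A_33_P3243832, with its other probe dim on all 11 arrays. Chromosome 8, which holds ESRP1, GRHL2 and SNAI2, had a median change of -0.49 over its 379 tested genes in A549 TRIM58-WT, with 7 called higher and 44 lower, and these 3 regulators gave no measurable level there in A549.

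**Figure D3:**
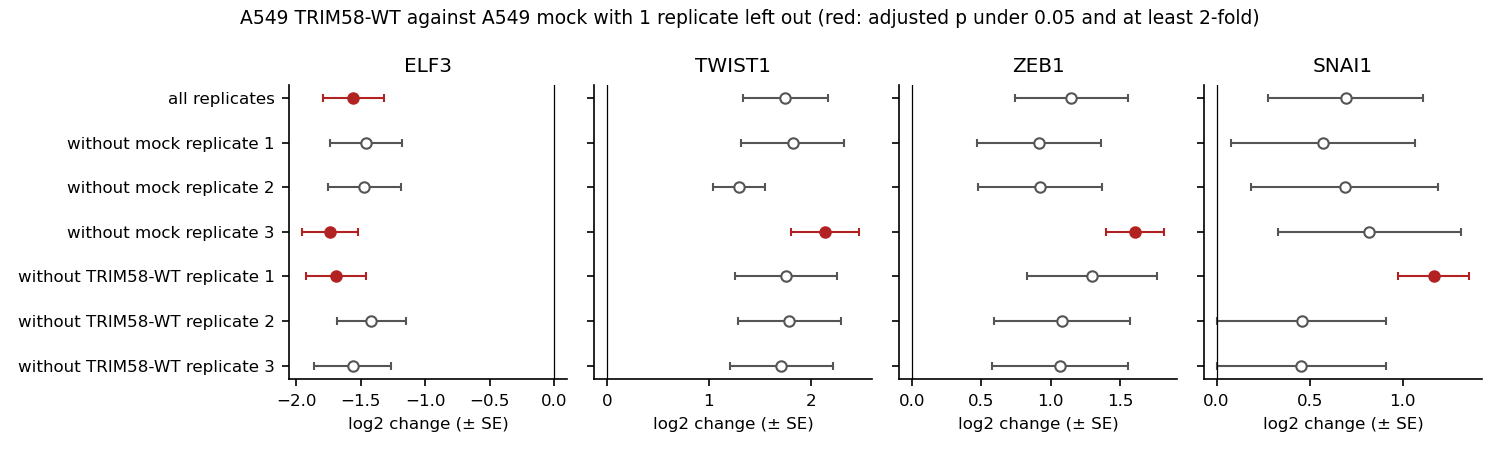
Log2 change of ELF3, TWIST1, ZEB1 and SNAI1 in A549 TRIM58-WT against A549 mock (horizontal axis, point ± SE from limma) with all replicates and with 1 replicate left out in turn. Red points had an adjusted p under 0.05 and a change of at least 2-fold. ELF3 is red in 3 of the 7 fits, TWIST1 and ZEB1 without mock replicate 3 alone, and SNAI1 without TRIM58-WT replicate 1 alone.

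In HCC827 the same comparison gave 1 called regulator, TWIST1, which was lower in TRIM58-WT. SNAI1 was higher on average without passing, and SNAI2 came above background on 1 TRIM58-WT array. The epithelial regulators were high in both groups, and none of them was called. Of the 17 probes 11 were tested, and 1 was called, beside 0.884% of the 19563 probes tested. TRIM58-WT did not overlap mock on 9 of the 11 probes, beside 56.7% of all tested probes.

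TWIST1 on A_33_P3414591 was at -2.16 and -2.35 in mock replicates 1 and 2 and at -4.82 and -5.11 in TRIM58-WT, where it was not well above background. Both TRIM58-WT arrays lay below both mock arrays. TWIST1 was at least 2.17-fold lower in TRIM58-WT, and the fitted log2 change was -2.71 (SE 0.17, adjusted p = 0.0287, limma). The call did not hold without mock replicate 1 (adjusted p = 0.159) or 2 (0.0818). After normexp background correction the change was -0.44 (adjusted p = 0.104). The second probe of TWIST1 was dim on all 4 HCC827 arrays.

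SNAI1 went from -0.10 and -0.13 in mock to 1.02 and 0.68 with TRIM58-WT. Both TRIM58-WT values lay above both mock values, 1.94-fold higher (log2 change 0.96, SE 0.17), which did not pass either threshold (adjusted p = 0.0939, limma). SNAI2 went from -5.04 and -5.21 to -1.69 and -3.05. Replicate 1 alone was well above background, so SNAI2 was not tested. Its TRIM58-WT mean was 1.82-fold above the lowest signals well above background on the mock arrays. That mean takes in replicate 2 at background, so the fold is no lower bound.

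ESRP1 went from 1.67 and 1.75 to 1.89 and 1.99 with TRIM58-WT, a change of 0.23 with a 95% confidence interval of -0.12 to 0.59. ESRP2 went from 4.32 and 4.20 to 4.75 and 4.49 (0.36, -0.07 to 0.79). GRHL2 went from 0.13 and 0.15 to 0.22 and 0.15 (0.04, -0.30 to 0.38). For ESRP1, ESRP2 and GRHL2 the whole interval thus lay inside a 2-fold change in either direction. ELF3 went from 4.44 and 4.40 to 3.87 and 4.36, a change of -0.31 (adjusted p = 0.438, limma) with an interval of -0.87 to 0.24.

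ZEB1 went from -1.62 and -1.28 to -1.57 and -1.94 on its brighter probe, and the groups overlapped (change -0.30, adjusted p = 0.453, limma). The 4 probes of TWIST2 were all higher on average in TRIM58-WT, by 0.30 to 0.43 on the log2 scale, with adjusted p between 0.203 and 0.305. ZEB2 was not well above background on any HCC827 array.

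**Figure D4:**
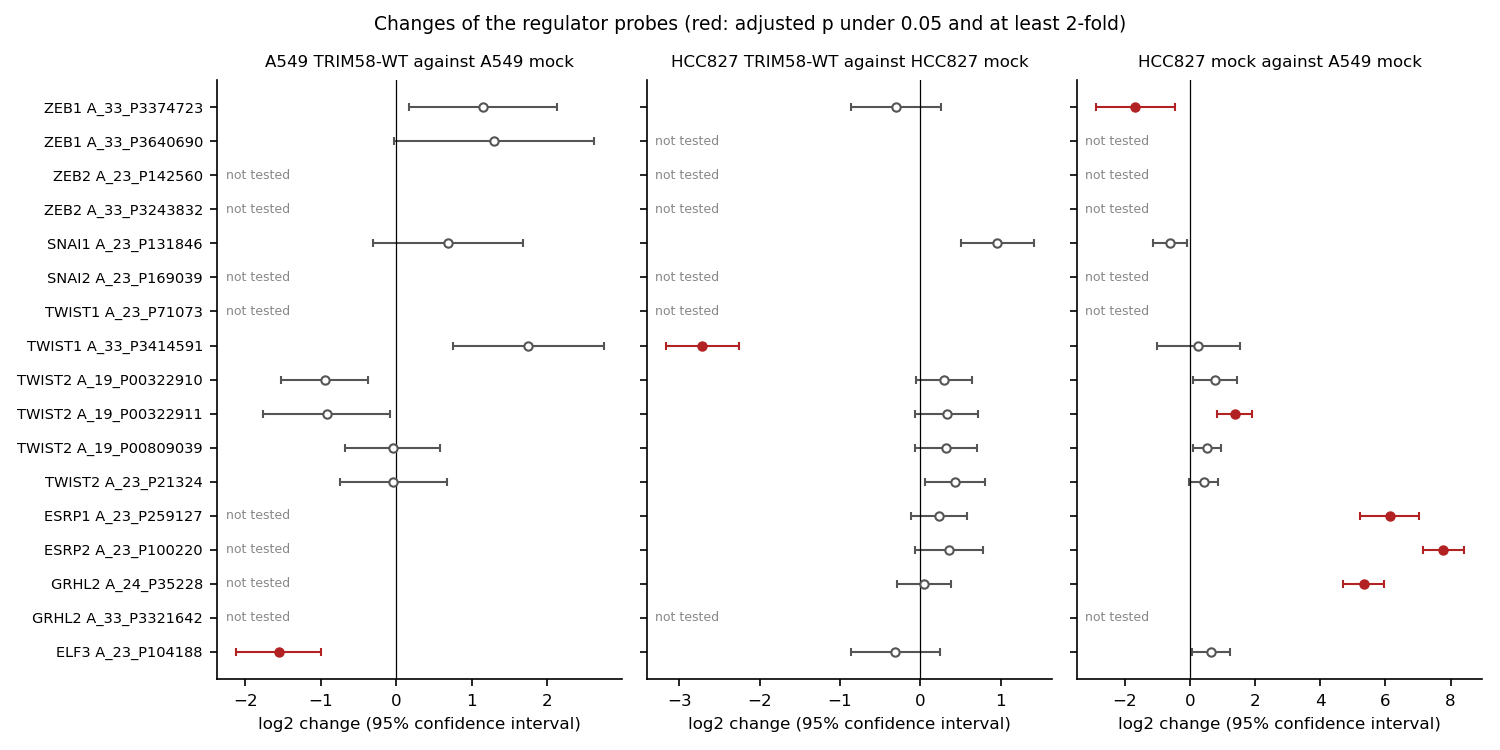
Log2 change with its 95% confidence interval (horizontal axis, limma) of each regulator probe in the 3 comparisons, with scales set separately for each. Red points were called, and probes that were not well above background on every array of 1 group are given as not tested. ELF3 is called lower in A549 TRIM58-WT, TWIST1 lower in HCC827 TRIM58-WT, and ESRP1, ESRP2, GRHL2 and 1 TWIST2 probe higher and ZEB1 lower in HCC827 mock against A549 mock.

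Whether the change differs between the lines was tested as a contrast of all replicates, called at an adjusted p under 0.05 alone. Of 12 regulator probes tested 1 was called, beside 3.86% of the 20641 probes tested. The change of TWIST1 in HCC827 minus that in A549 was -4.47 on the log2 scale (SE 0.59, adjusted p = 0.00648, limma), with a 95% confidence interval of -5.81 to -3.13, and it was -0.997 after normexp background correction (adjusted p = 0.0422). The fitted difference is set against a background signal in HCC827 TRIM58-WT and is no bound. With the fall in HCC827 at its bound of -1.12 the difference was -2.87, a value with no test. TWIST1 went from -2.16 and -2.35 to background in HCC827 and from -3.42 to -1.72 up to -0.82 to -0.67 in A549. The change of ELF3 was 1.25 less negative in HCC827 (SE 0.36), which did not pass (adjusted p = 0.104), so a decrease of ELF3 particular to A549 was not shown. The change of ZEB1 differed by -1.45 (adjusted p = 0.231) and that of SNAI1 by 0.26 (adjusted p = 0.852), neither past the threshold.

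In order of level, ESRP1, ESRP2 and GRHL2 stood high in both HCC827 groups and at background in both A549 groups, with neighbours inside each line not called. ELF3 stood highest in HCC827 mock, then HCC827 TRIM58-WT, A549 mock and A549 TRIM58-WT, and of the steps tested, the fall in A549 alone passed. The step from HCC827 TRIM58-WT to A549 mock was not tested. ZEB1 ran the other way, with A549 TRIM58-WT at 1.38 ± 0.26 (SD, n = 3), A549 mock at 0.23 ± 0.80 (n = 3), HCC827 mock at -1.45 ± 0.24 (n = 2) and HCC827 TRIM58-WT at -1.75 ± 0.26 (n = 2), where the step between the lines was called. SNAI1 followed another order, with A549 TRIM58-WT at 1.20 ± 0.82, HCC827 TRIM58-WT at 0.85 ± 0.24, A549 mock at 0.51 ± 0.25 and HCC827 mock at -0.11 ± 0.02. TWIST1 was highest in A549 TRIM58-WT at -0.75 ± 0.08, followed by HCC827 mock at -2.25 ± 0.13 and A549 mock at -2.50 ± 0.86, whose spreads overlapped, and HCC827 TRIM58-WT at background.

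Over the 10 replicates, the level of ESRP1 was compared with those of 20617 probes. Each gene is given by its probe of highest r, so a more opposite probe of the same gene is not shown. The named genes most like it by Pearson's r were HS6ST2 (0.998), RNF212 (0.998), RAC2, SFTA2 and CST6 (0.997 each). GRHL2 ranked 11 with an r of 0.997 and ESRP2 ranked 21 with an r of 0.996. Probe A_19_P00322911 of TWIST2 (0.90), the most alike of its probes, was more like ESRP1 than the single probe of ELF3 was (0.69). The dimmer probe of ZEB1 ran opposite (-0.87), as did TWIST1 (-0.64) and, less so, SNAI1 (-0.37). For the brighter probe of ZEB1 the most alike were DPYSL5, CCNB2, GLI1 (0.991 each), ANKRD54 and DLK2. Among the probes shown, those most opposite to ZEB1 were of ELF3 (-0.89), ESRP1 (-0.87), ESRP2 (-0.86) and GRHL2 (-0.85). TWIST2 on A_23_P21324, the least opposite of its probes, ran opposite too (-0.62). TWIST1 (0.82) and SNAI1 (0.57) ran alike. No ranking of TWIST2 by its other probes is given. The replicates fall into clusters by line and share arrays and slides, so these values describe the pattern and carry no test.

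The genes that ZEB, SNAI and GRHL2 are known to act on were taken as a list of 24 epithelial targets, with the brightest probe of each gene. In A549 TRIM58-WT 8 of the 15 measured targets fell and none rose, beside 4.07% of 11202 genes called lower. Of the 15, 6 were measured through mock alone, where they were high, so a rise could hardly be called for them, and the other 9 of the 24 were not tested. The median fitted change of the 15 was -2.50, and -2.09 with each gene that a group left wholly at background put at its bound, against 0.03 for all genes. MAL2, a protein of apical transport, went from 2.66 ± 1.35 in mock to -4.77 ± 0.15 and background in TRIM58-WT (SD, n = 3 each), at least 39.1-fold lower. EPCAM, the epithelial adhesion molecule, was 29.4-fold lower (adjusted p = 0.0117), CRB3 of the apical polarity complex 8.92-fold lower (0.0224) and the tight junction protein CLDN4 at least 8.01-fold lower (0.0181, limma). CDH1 (E-cadherin), chosen here after its values were seen, was 2.33 lower on the log2 scale without passing (adjusted p = 0.0716).

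In HCC827 TRIM58-WT limma called 0 of the 24 targets, with 8 at an unadjusted p under 0.05, beside 0.762% of 12208 genes called lower, and the median change was 0.16. The methods' t-test also called 0, but with 2 replicates against 2 it called 0 of all 19563 probes, so its counts in HCC827 say nothing about the lists. In HCC827 mock against A549 mock 15 of the 24 were called higher and none lower, beside 16.4% of 12410 genes called higher. Of the 24, 9 were measured through HCC827 mock alone, where they were high, so a lower level could hardly be called for them. The membrane protease PRSS8 was at least 141-fold higher and CLDN7, another claudin, 189-fold higher. CLDN7 was well above background on 3 of the 4 A549 mock arrays. The difference of the TRIM58-WT change between the lines was called for 3 of the 24, beside 2.5% of 12855 genes called less negative or more positive in HCC827. The count in A549 moved with single replicates, to 2 without mock replicate 1, mock replicate 2, TRIM58-WT replicate 2 or TRIM58-WT replicate 3, and to 12 without mock replicate 3. It was 2 with TRIM58-WT replicates 2 and 3 averaged, and 0 by the methods' t-test, which called 24 of all 16923 probes.

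Sequences of 2 of these targets that both fell in A549 TRIM58-WT, 1 with and 1 without E-boxes, are given in the same form as those of ELF3 and ZEB1. Of the 24 targets 14 had windows, and 13 of their 19 windows (68.4%) held the E-box CAGGTG, beside 17.5% of all windows. The list holds known targets of factors that bind this motif, so its share was not independent of the choice. The share was 23.5% for the mesenchymal genes and 17.6% for the other epithelial transcription factors listed below. The median GC content was 66% in the windows of the targets, 64.4% and 52% in those of these 2 lists, and 58% in all windows. The part of GC content in these differences was not tested. CRB3 (chr19:6464021-6464270, plus strand) holds 5 matches and CLDN4 (chr7:73830746-73830995, plus strand) none.
CRB3: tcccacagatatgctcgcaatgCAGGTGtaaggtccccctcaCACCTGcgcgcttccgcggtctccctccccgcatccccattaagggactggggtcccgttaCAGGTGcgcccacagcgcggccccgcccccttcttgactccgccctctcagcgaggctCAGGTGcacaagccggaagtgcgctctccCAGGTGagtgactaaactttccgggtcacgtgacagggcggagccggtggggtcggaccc
CLDN4: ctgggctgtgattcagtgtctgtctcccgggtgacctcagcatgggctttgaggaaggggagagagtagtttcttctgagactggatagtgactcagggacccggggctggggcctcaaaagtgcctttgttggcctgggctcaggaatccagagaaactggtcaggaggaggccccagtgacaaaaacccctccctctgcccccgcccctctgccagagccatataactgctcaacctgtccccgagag

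The mesenchymal genes that could be measured mostly moved the other way in A549. Of the 20 listed, 8 were not tested, among them COL1A2, COL3A1 and THY1, which were at background on every array. Of 12 measured, 7 rose and 1 fell, beside 3.91% of genes called higher and 4.07% called lower, and 3 of the 12 were measured through TRIM58-WT alone, where they were high. The median fitted change was 2.41, and 2.11 with such genes at their bound. COL1A1, a chain of type I collagen, was at background on all 4 mock arrays and was at least 7.13-fold higher in TRIM58-WT. COL5A1 was 18.7-fold higher (adjusted p = 0.0236), COL6A1 12.8-fold (0.00305) and N-cadherin, CDH2, 6.57-fold (0.0472, limma), while S100A4 was the gene that fell. Of the epithelial targets, MAL2 lies on chromosome 8, and with each chromosome centred on its median 7 targets were called. Vimentin (VIM), chosen after its values were seen, was 2.06 higher on the log2 scale without passing (adjusted p = 0.203). In HCC827 limma called 0 of 7 measured, beside 1.1% of genes called, with 4 at an unadjusted p under 0.05. HCC827 mock was lower than A549 mock on 7 of 10, beside 15.5% of genes called lower, and higher on TNC. Of the 10, 3 were measured through A549 mock alone, where they were high, and 1 through HCC827 mock alone. Of the 12 genes measured in A549, between 3 and 9 were called when 1 replicate was left out, with 4 in the absence of TRIM58-WT replicate 2 and 3 in that of TRIM58-WT replicate 3, mock replicate 1 or mock replicate 2, and 0 were called by the methods' t-test.

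Some markers of lung adenocarcinoma fell with the epithelial targets in A549, and others were not called. Of 6 measured, 3 fell in A549 TRIM58-WT (KRT19, KRT8 and EPCAM, which is also on the list of targets), beside 4.07% of genes called lower. The bound for KRT19 was at least 723-fold (adjusted p = 0.000151, limma). Of the 6, 2 were measured through mock alone, where they were high. KRT7 had a mean of 9.47 in mock and 9.72 in TRIM58-WT. The log2 of the summed signal of the 11 lung adenocarcinoma markers was 10.6 to 11.2 on the mock arrays and 10.1 to 10.75 on the TRIM58-WT arrays. The sum of the 7 fibroblast markers was -1.65 to 0.32 in A549 mock and -1.91 to -1.32 in TRIM58-WT, and the fibroblast genes COL1A2, COL3A1, DCN, THY1, PDGFRA and PDGFRB were dim on every array. LUM had a mean level of -1.39 in A549 mock, up to 0.07, and of -4.64 and background in TRIM58-WT. The sum of the 6 endothelial and leukocyte markers was 1.097 to 1.75 in A549 mock and 0.75 to 1.06 in TRIM58-WT, with PECAM1, CDH5, VWF and CD3E dim on every array. CD68 was well above background on all 11 arrays, with a mean of 1.24 in A549 mock and 0.32 in TRIM58-WT, and PTPRC on 2 of 4 A549 mock and 2 of 3 A549 TRIM58-WT arrays. The part of these markers in the results was not tested. Fewer cells of a type and less RNA per cell cannot be told apart in these bulk samples.

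Some other epithelial transcription factors fell with ELF3 in A549. Of 7 measured, 4 were called lower and none higher, beside 4.07% of genes called lower. Of the 7, 3 were measured through mock alone, where they were high, so a rise could hardly be called for them. The other 11 of the 18 listed were not tested. SPDEF, an ETS factor like ELF3, was 9.94-fold lower, KLF5 5.82-fold and KLF4 5.49-fold. Between 3 and 4 of them were called whichever replicate was left out. In HCC827 1 of 12 was called, the GRHL2 paralogue GRHL1, 2.39-fold lower (adjusted p = 0.0487, limma), beside 1.1% of genes called, and 0 were called whichever replicate was left out. Between the mock groups 9 of 13 were called, 6 higher and 3 lower in HCC827, beside 31.9% of genes. Of the 13, 6 were measured through HCC827 mock alone, where they were high, and 1 through A549 mock alone. OVOL1, a factor known to oppose ZEB1, was at least 16.1-fold higher in HCC827 mock, NKX2-1 at least 195-fold and GRHL1 39.5-fold. GRHL1 was well above background on 1 of the 4 A549 mock arrays, so its fold rests partly on background signal.

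Of the other mesenchymal transcription factors, 3 of 10 rose and 2 fell in A549 TRIM58-WT, beside 7.98% of genes called in either direction. Of these, RUNX2, the runt factor of bone, was at least 4.12-fold higher, FOXQ1 3.53-fold higher and TCF4, a partner of TWIST proteins, 3.03-fold higher. TBX18 was 4.02-fold lower. The 5 called became 1 without mock replicate 1, TRIM58-WT replicate 2 or TRIM58-WT replicate 3 and 2 without mock replicate 2, and they were between 4 and 6 in the other 2 fits. In HCC827 TRIM58-WT limma called 0 of 9, beside 1.1% of genes called, with 5 at an unadjusted p under 0.05. Between the mock groups 8 of 11 were called, 4 higher and 4 lower in HCC827, beside 31.9% of genes. In HCC827 mock TBX18, FOXQ1 and TCF4 were lower than in A549 mock, by at least 18.8-fold, by 67.02-fold and by at least 9.94-fold.

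**Figure D5:**
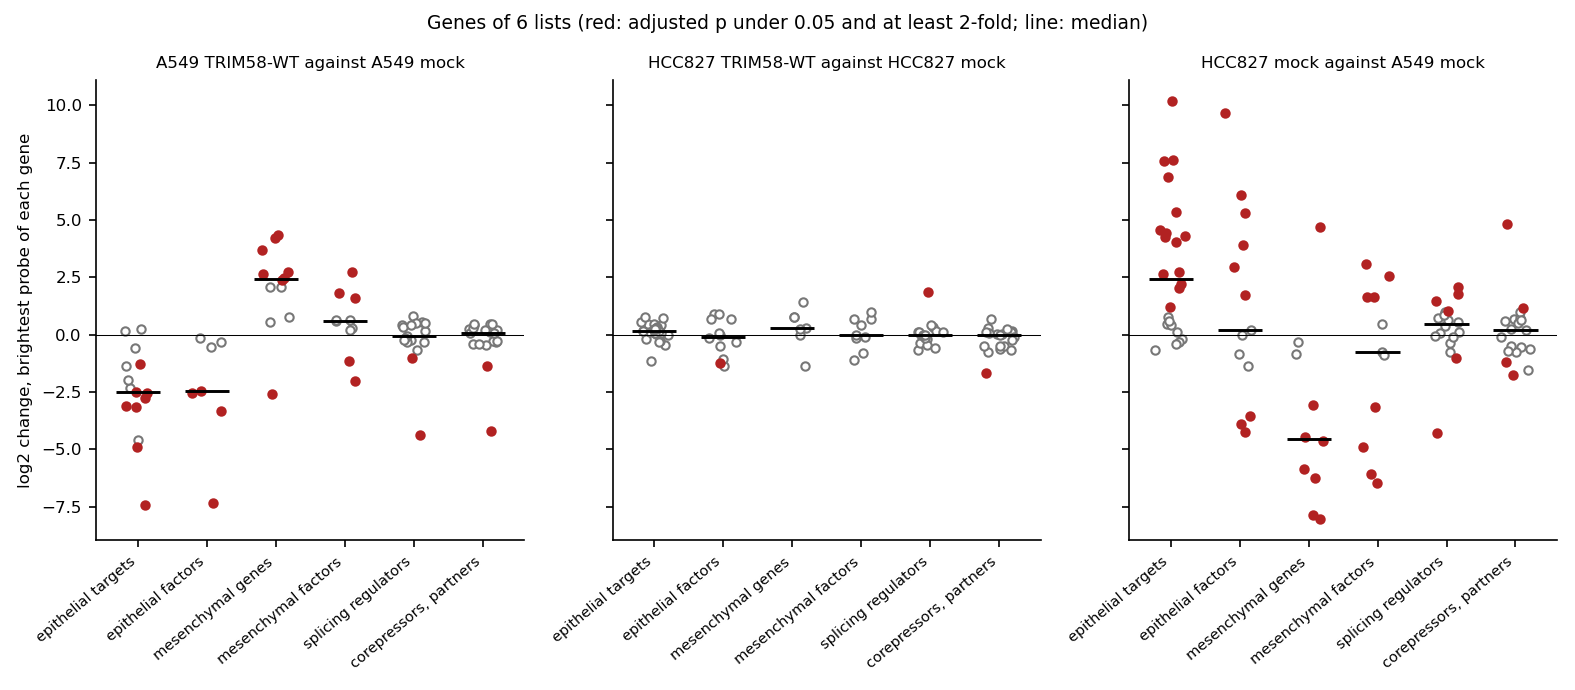
Log2 change of the brightest probe of each measured gene (vertical axis) in 6 lists around the regulators, in the 3 comparisons. Red points were called, open points were not, and lines mark medians. In A549 TRIM58-WT the called epithelial targets and epithelial factors lie below 0 and 7 of 8 called mesenchymal genes above it, in HCC827 TRIM58-WT the medians lie between -0.08 and 0.29, and in HCC827 mock against A549 mock the epithelial targets lie high and the mesenchymal genes low.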

How the data were processed

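The authors hybridised RNA of the 11 samples to Agilent arrays in 1 colour and extracted an intensity per spot with Feature Extraction (11.5.1.1 per the file headers, 10.7 in the submitters' processing notes), background-subtracted and not scaled between arrays. A second deposited table holds log2 values for these 11 arrays. Once a baseline per probe, whose origin stays unknown, is taken off, 95.5% of them match the scaled spot intensities used here within 0.01. The paper names Benjamini-Hochberg adjustment, an adjusted p under 0.05 and a change over 2-fold, and does not name the test or the normalization of the arrays.

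Here control and outlier spots were left out, the spots of a probe averaged, log2 taken and the 75th percentile of the array subtracted (R 4.3.3, limma 3.58.1), with 28 values lost in this way. The scanner's flag for a signal well above background had to be set on more than a share of 0.5 of a probe's spots. A probe that met this on all arrays of either group in a comparison was fitted with lmFit and eBayes, with Benjamini-Hochberg adjustment over all such probes. Where a group lay at background on all its arrays, a fold is given as a lower bound, computed from means of log2 values. It is no bound where the other group also had an array at background. Names came from a RefSeq table (GRCh38.p14) for 27241 of 28302 probes with a RefSeq accession. The array was designed on hg19, so no probe coordinates are given. Of a gene with several probes all were described, and lists used the brightest.

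The regulators and gene lists were chosen with earlier results of these data known. The genes named are all 10 regulators, TRIM58, up to 4 called genes of each list in A549, 2 in HCC827 and 3 between the mock groups by size of change, and the 5 genes most like ESRP1 and ZEB1. Some genes that this rule selects are not reported here. Alternatives were quantile normalization, median scaling, normexp (offset 50), no filter, a filter on every array, outlier spots kept, an intensity trend, the authors' log2 table, chromosome centring, the methods' t-test, all groups in one fit, a replicate block, slide as a block, each replicate left out in turn, and mock arrays 1-1 and 1-2 used singly or separately. Averaging TRIM58-WT replicates 2 and 3 was added after seeing the data. The steps were tested on simulated data. The labels do not say whether replicates are separate cultures, so p-values measure the spread between these samples, which may be technical, and the number of arrays limits precision. Plots used matplotlib 3.10.9 in Python 3.11.15.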

Additional observations from a re-analysis of the deposited data

Results flagged for a closer look

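The change of TWIST1 under TRIM58-WT differed between the lines by -4.47 on the log2 scale (HCC827 minus A549, adjusted p = 0.00648, limma), on probe A_33_P3414591. It was tested as a contrast of all replicates of both lines, with TWIST1 lower in HCC827 TRIM58-WT and higher on average in A549 TRIM58-WT. Of the alternatives in which this probe was tested, the difference was called in all, between -4.86 and -0.997 on the log2 scale. The HCC827 TRIM58-WT arrays were at background on this probe, so the fitted difference is no bound, and with the fall in HCC827 at its bound it was -2.87, a value with no test. With the filter that asks for a signal well above background on every array the probe was not tested, and the other TWIST1 probe was at background on all 11 arrays.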

How the results depend on the processing

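In A549 the number of called regulator probes was 1 with all replicates and between 0 and 4 with 1 replicate left out. It was 3 after quantile normalization (ELF3 and 2 probes of TWIST2), 2 with each chromosome centred (ELF3 and TWIST2), 2 with all groups in one fit, with mock array 1-2 alone or with mock arrays 1-1 and 1-2 as separate replicates (ELF3 and TWIST1 each time), and 3 with slide as a block (with ZEB1). It was 0 without the filter on dim probes, with the methods' t-test and with TRIM58-WT replicates 2 and 3 averaged. In HCC827 it was 1, and between 0 and 2 with 1 replicate left out. It was 0 after normexp, without the filter, with the filter on every array, with the methods' t-test and with the replicate block. The methods' t-test called 0 of all 19563 probes in HCC827, so its count there says nothing about the regulators. Between the mock groups the number of called regulator probes was 5, and between 3 and 5 with 1 replicate left out. It was 3 after normexp, with chromosomes centred and with the methods' t-test, and 2 with the filter on every array. For the difference between lines it was 1, between 1 and 4 with 1 replicate left out, 2 after quantile normalization or with slide as a block, and 0 with the filter on every array.

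The main fits did not treat samples as paired by replicate number. Deviations of same-numbered A549 samples from their group means correlated at 0.50, -0.42 and 0.50 and those of HCC827 at 0.08. Deviations within a group constrain each other, and in HCC827 every pair has the same size of 0.08 by construction. The correlations therefore cannot decide whether the numbers pair the samples. With the replicate block, 1 regulator probe was called in A549, 0 in HCC827 (TWIST1 adjusted p = 0.0758) and 1 for the difference between lines.

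Small changes that were not called turned sign. The change of TWIST2 in A549 was 0.00786 with mock arrays 1-1 and 1-2 separate and between -0.26 and 0.27 with 1 replicate left out. The change of TWIST1 between the mock groups was -0.0862 after normexp, -0.11 with chromosomes centred and between -0.21 and 0.64 with 1 replicate left out. The difference between lines for ESRP2 was 0.42 after quantile normalization, 0.37 with median scaling, 0.0755 after normexp, 0.0762 with TRIM58-WT replicates 2 and 3 averaged, and between -0.24 and 0.12 with 1 replicate left out. That for GRHL2 was 0.0363 after quantile normalization and 0.17 with median scaling, that for ESRP1 -0.0408 after normexp, and that for SNAI1 between -0.21 and 0.50 with 1 replicate left out. The cause of these moves was not tested. Median scaling shifted the median change of all tested probes in A549 from 0.06 to -0.31, and relative to that shift the regulators' changes are the same by construction.

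The calls of ESRP1, ESRP2 and GRHL2 between the mock groups held in every alternative in which they were tested, with log2 changes between 1.65 and 7.97. Levels at background limit what can be said of ESRP1, ESRP2, GRHL2, SNAI2 and ZEB2 in A549, where a change below the lowest signal above background could not be measured.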

Other observations

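Of the other regulators of epithelial and mesenchymal splicing, 17 were measured in A549 and 2 were called, both lower in TRIM58-WT, beside 7.98% of all genes called. NOVA1, a splicing factor best known from neurons, was at least 9.11-fold lower (adjusted p = 0.0025, limma) and AKAP8 was 2.01-fold lower (0.0198). The count was 3 without mock replicate 3 and 1 without any one of the other 5 replicates. In HCC827 1 of 17 was called, CELF2, 3.59-fold higher in TRIM58-WT (adjusted p = 0.034, limma), beside 1.1% of all genes. CELF2 was well above background on 3 of 4 A549 mock arrays and on no A549 TRIM58-WT array. Its fitted change differed between the lines by 4.98 on the log2 scale (adjusted p = 0.000649, limma). With A549 TRIM58-WT put at the lowest signals well above background, the difference was 2.71. This value has no test and is no bound, as the A549 mock mean takes in a background signal. The call in HCC827 did not hold whichever replicate was left out. Between the mock groups 6 of 18 were called, beside 31.9% of all genes, among them RBM24, at least 4.05-fold lower in HCC827, and KHDRBS3 and PTBP2, 4.19-fold and 3.45-fold higher. RBM47, an RNA-binding protein linked to epithelial splicing, was chosen after its values were seen and was not called in either line.

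A list of corepressors and partners of ZEB and SNAI also held the ID genes, and its genes are called partners here for short. ID proteins inhibit basic helix-loop-helix factors, whereas ZEB and SNAI are zinc-finger factors. All 19 genes on the array were measured in both lines, and under TRIM58-WT the only ones called were ID genes. ID4, an inhibitor of basic helix-loop-helix factors such as TWIST1, was 18.3-fold lower in A549 TRIM58-WT (adjusted p = 0.0334) and 3.19-fold lower in HCC827 TRIM58-WT (0.0381, limma). No partner was called in A549 without mock replicate 1, mock replicate 2, TRIM58-WT replicate 2 or TRIM58-WT replicate 3, nor in HCC827 without mock replicate 1, mock replicate 2 or TRIM58-WT replicate 1. ID4 was the 1 partner of 19 called in HCC827 (beside 1.1% of all genes). ID1, of the same family, was called in A549 with ID4, 2.56-fold lower, which made 2 of 19 beside 7.98% of all genes. The corepressors CTBP1, CTBP2, HDAC1, HDAC2 and KDM1A, chosen after their values were seen, were not called in either line. Between the mock groups 4 of 19 were called, beside 31.9% of all genes, with SMARCA4 (BRG1), a remodeller ATPase, 28.5-fold higher in HCC827 mock, and ID3 3.37-fold and KAT2B 2.25-fold lower.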
